A study of Gallus gallus with 20 samples.

Results

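The rows described here are 30 genes without keratin names that were at their highest in scutate scales misexpressing Sox2. They were chosen from the 16110 rows with Ensembl identifiers in a table of 16290 rows. A row was kept when its mean was at least 5 RPKM (reads scaled to gene length and to the library's read total) in Sox2 scales and its mean plus 1 there was at least 2 times the mean plus 1 in each of the other 8 groups. Of the 16110 rows, 7969 reached 5 RPKM in Sox2 scales, and the 30 made up 0.186% of all. The choice used the values of every group, so the height of these rows in Sox2 scales is a description and was not tested. The files do not pair the identifiers with gene names, and the reference table held 0 of these identifiers. The 30 are therefore called member 1 to member 30, ranked from the largest to the smallest fold over the nearest other group, and 4 identifiers are printed.

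Sox2 is a transcription factor with an HMG box, a DNA-binding domain shared by the Sox family. It is known for its part in pluripotent cells, in neural and sensory progenitors and in the epithelium of the foregut, and in the mouse it marks the dermal papilla of some hair types. Sox18, of the same family, is known in the mouse for blood and lymphatic vessels and for the hair coat. Scutate scales are the large overlapping plates of the avian shank and foot. Keratins make up most of their cornified surface.

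Tissue came from White Leghorn chicken embryos on embryonic day 16, as 20 libraries in 9 groups. Scales misexpressing a gene from RCAS, a replicating avian retroviral vector, carried Sox2 (n = 2), Sox18 (n = 3), a construct named Zic1-deltaC (n = 3), Spry2, an inhibitor of receptor tyrosine kinase signalling (n = 2), Grem1, which binds and blocks bone morphogenetic proteins outside the cell (n = 2), or beta-catenin, the effector of Wnt signalling (n = 2). Scales exposed to retinoic acid (RA), put into the amniotic cavity on embryonic day 9 (n = 2), and normal feather, taken as dorsal skin (n = 2), have no virus in their labels, and no group had the RA vehicle alone. Control scales carried green fluorescent protein (GFP) in RCAS (n = 2). Virus was injected on embryonic day 3, or else the plasmid was electroporated, and the labels do not say which route each library had, what cells were infected or whether replicates were separate embryos. Values of p therefore measure only the spread between these samples, which may be technical. RNA came from whole dissected tissue, so more cells of a type and more RNA per cell cannot be told apart.

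Summed RPKM ran between 373552 and 750919 per library, and read totals were not analysed here, so depth is unknown. Pearson's r of log2(RPKM + 1) over all rows, which are not independent, was 0.994 between the Sox2 libraries and between 0.989 and 0.997 within all groups. Keratin rows took 5.91% and 4.39% of the summed RPKM in Sox2 scales and between 10.9% and 74.4% in the other libraries, with 22.3% and 25.3% in GFP scales. Claw keratins, hard keratins of scale and claw, summed to 656 and 452 RPKM in Sox2 scales, 49.9 and 38.9 RPKM in normal feather and 35110 and 41691 RPKM in GFP scales. Feather keratins summed to 548770 and 462430 RPKM in normal feather and 15950 and 18786 RPKM in GFP scales, so feather and control scale carried the keratins of their labels. Rows without keratin names also stood higher in Sox2 libraries in general, and the part of the low keratin share in this was not tested. Of all 16110 such rows, 4440, or 27.6%, had both Sox2 libraries above all 18 others, and all 30 members did, as the rule nearly fixes. The median log2 ratio of Sox2 to GFP scales was 0.28 over rows with Ensembl identifiers that were at 1 RPKM or more in at least 2 libraries, and 1.45 over the members.

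**Figure D1:**
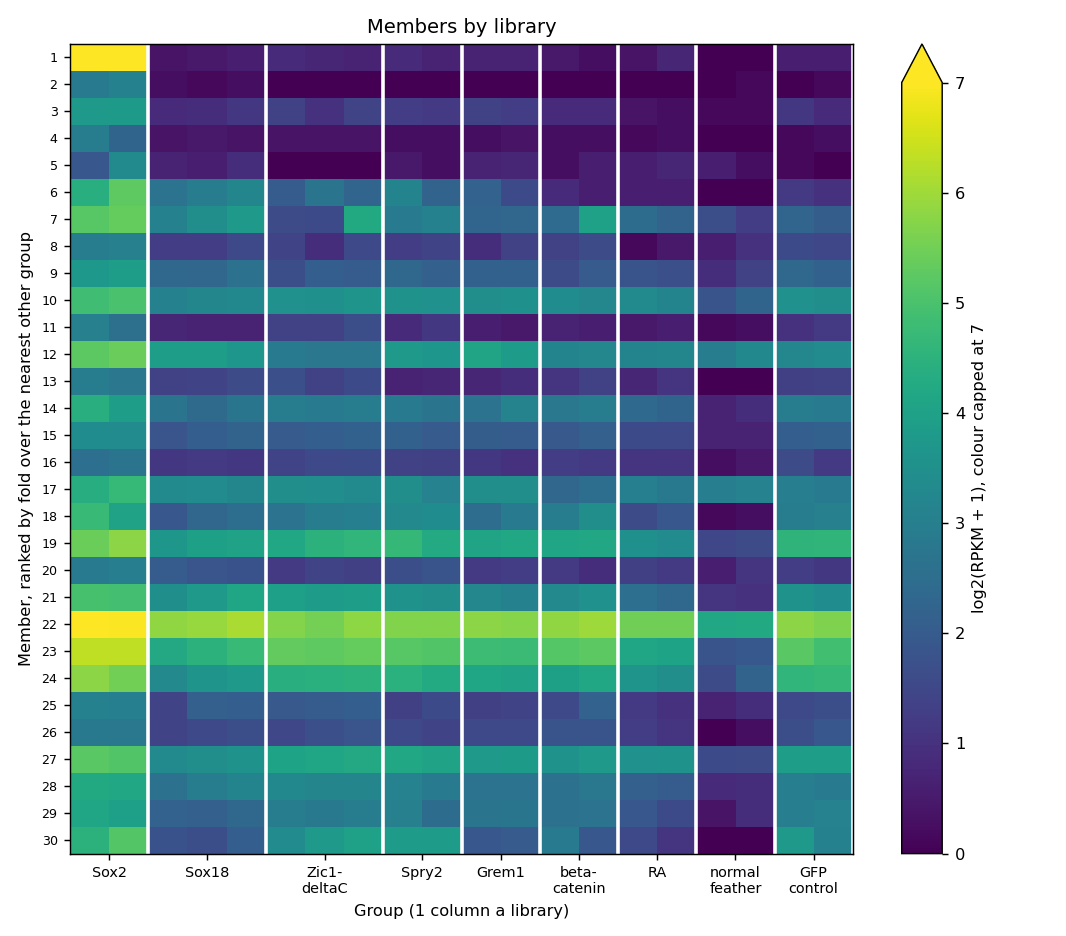
Each row is a member, each column a library, and colour gives log2(RPKM + 1), capped at 7. The Sox2 columns on the left are the brightest in every row, and normal feather is the darkest group in 25 of 30 rows. The count of rows darkest in feather was not made over all genes.

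Member 1 stood apart from the other 29. ENSGALG00000008848 was at 2069 and 2093 RPKM in the Sox2 libraries and at 0.8 RPKM or less in all 18 others, a ratio of 1225 of the mean plus 1 over the nearest group, Zic1-deltaC. It made up 74.3% of the members' summed RPKM in Sox2 scales and was the 13th most abundant of all rows with Ensembl identifiers there. In GFP scales it was at 0.5 RPKM in both libraries, and in normal feather it was listed at 0 in both. The files give no symbol for it, and whether it is the gene carried by the virus was not tested. The next largest ratio among the members was 6.69.

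Members 2, 4 and 5 averaged under 10 RPKM in Sox2 scales and were under 1 RPKM in every other library, and member 3 was somewhat higher in both. ENSGALG00000020193, member 2, was at 6.2 and 7.4 RPKM in Sox2 scales, 0.2, 0.1 and 0.2 RPKM with Sox18, 0 and 0.1 RPKM in feather, 0 and 0.1 RPKM in GFP scales, and 0 in all libraries of the remaining 5 groups. Member 3 was at 12.8 and 13.2 RPKM in Sox2 scales and at 1.7 RPKM or less in all other libraries, 9 of which reached 1 RPKM, with 1.2 and 0.8 RPKM in GFP scales. Member 4 was at 6.6 and 3.8 RPKM in Sox2 scales and at 0.4 RPKM or less elsewhere. The Sox2 libraries disagreed most on member 5, with 2.7 and 9.1 RPKM, against 0.9 RPKM or less in all others. For these 4 members the ratio over the nearest group lay between 4.14 and 6.69, values that the 1 RPKM added to both means holds down at such low levels. Together with member 1 they are the 5 members under 2 RPKM in every library outside Sox2.

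Members 6 and 7 were at moderate levels in several groups and highest with Sox2. Member 6 was at 19.8 and 37.3 RPKM in Sox2 scales, and at 5.4, 6.6 and 8.2 RPKM with Sox18, 3.1, 5.5 and 3.9 RPKM with Zic1-deltaC and 7.9 and 3.7 RPKM with Spry2. It stood at 3.6 and 2 RPKM with Grem1, 0.8 and 0.5 RPKM with beta-catenin, 0.5 RPKM in both RA libraries and 1.3 and 1 RPKM in GFP scales, and was listed at 0 in both feather libraries. The Sox18, Zic1-deltaC, Spry2 and Grem1 libraries all lay between Sox2 and GFP scales. Member 7 was at 35.2 and 39.9 RPKM in Sox2 scales and at 3.9 and 3.2 RPKM in GFP scales. Its replicates split in other groups, with 2.1, 2 and 18 RPKM under Zic1-deltaC and 4.5 and 15.1 RPKM under beta-catenin, so its order among those groups rests on single libraries. These 7 members are all that reached a ratio of 3 over the nearest group.

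**Figure D2:**
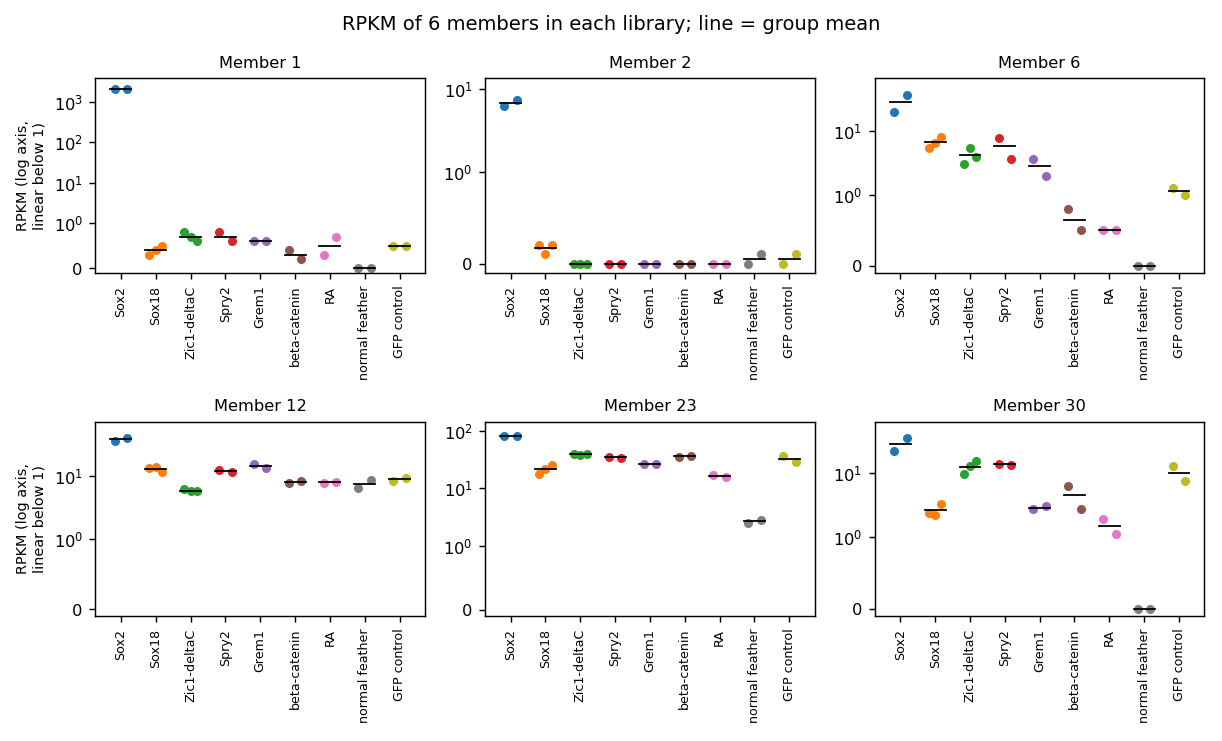
RPKM of 6 members in each library (points) with the group mean (line), on a log axis that is linear below 1. Member 1 is at 2069 and 2093 RPKM in Sox2 scales and at 0.8 RPKM or less elsewhere. For member 6 the Sox18, Zic1-deltaC, Spry2 and Grem1 libraries lie between Sox2 and GFP scales, and several of these groups overlap. Members 23 and 30 keep clear levels in several scale groups.

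The remaining 23 members stood higher in Sox2 scales by a smaller fold. In all 7 other scale groups 20 of them averaged at least 1 RPKM, and members 8, 11 and 13 did not. Between them, 8 had a ratio from 2.2 up to 3 and 15 had a ratio under 2.2. The most abundant was member 22, at 129 and 122 RPKM in Sox2 scales, between 17.5 and 67.7 RPKM in the 18 other libraries, and 53.6 and 48.8 RPKM in GFP scales. Member 23, ENSGALG00000000424, was at 79.5 and 79.3 RPKM in Sox2 scales, 17.7, 21.4 and 25.2 RPKM with Sox18, 38.8, 37.1 and 39.7 RPKM with Zic1-deltaC and 36.2 and 28.6 RPKM in GFP scales. Its feather libraries, at 2.5 and 2.8 RPKM, were far below every scale library. Member 12 was at 36.6 and 41.4 RPKM in Sox2 scales, 16 and 13.7 RPKM with Grem1, 13.8, 14.2 and 11.9 RPKM with Sox18, 6.3, 5.8 and 5.8 RPKM with Zic1-deltaC and 8.5 and 9.4 RPKM in GFP scales. Unlike most members it was not low in feather, at 6.6 and 8.7 RPKM. At the edge of the rule, member 30, ENSGALG00000011270, was at 21.6 and 34.1 RPKM in Sox2 scales, 13.5 and 13.3 RPKM with Spry2, 9.4, 12.6 and 15 RPKM with Zic1-deltaC and 12.5 and 7.5 RPKM in GFP scales. It was at 2.4, 2.2 and 3.3 RPKM with Sox18, 2.7 and 3 RPKM with Grem1, 6.2 and 2.7 RPKM with beta-catenin and 1.9 and 1.1 RPKM with RA, and at 0 in feather.

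Over all 30, the mean in Sox2 scales was under 10 RPKM for 11 members, from 10 up to 50 RPKM for 16 and 50 RPKM or more for 3, with a median of 17.4 RPKM. Replicate 1 was the higher Sox2 library for 15 members and replicate 2 for 15. The higher over the lower library had a median ratio of 1.13 and exceeded 1.5 for 5 members, up to 3.37 for member 5. Apart from member 1, the members summed to 706 and 733 RPKM in Sox2 scales, 252 and 233 RPKM in GFP scales and 51.1 and 60.5 RPKM in feather. With each Sox2 library compared with each other library singly, 11 of the 30 kept a ratio of at least 2. The 3 members just inside the fold had ratios of 2.003, 2.006 and 2.007, and the 3 rows just outside had 1.993, 1.992 and 1.991. At the floor, the lowest members had means of 5.2, 5.2 and 5.9 RPKM in Sox2 scales, and the nearest rows below had 4.1, 3.85 and 3.7 RPKM. The same rule kept 126 rows for feather, 31 for GFP scales and between 4 and 7 for each of the other 6 groups.

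The group nearest to Sox2 was Zic1-deltaC for 10 members, Sox18 for 8, GFP for 5, Spry2 and Grem1 for 3 each and beta-catenin for 1. RA and feather were nearest for 0. These tallies depended on the scaling. After median-ratio scaling Sox18 was nearest for 11 members, Zic1-deltaC and beta-catenin for 5 each, GFP and feather for 3 each, and Spry2, Grem1 and RA for 1 each. In RPKM as deposited the libraries of the nearest group overlapped those of the next for 25 of the 30, and for 5 they lay apart. The share over all rows was not counted, so nothing about the members is read from this. Over the 8 groups outside Sox2, feather was the lowest for 25 members, or 21 after median-ratio scaling. As deposited, 19 members averaged under 1 RPKM there. Neither tally was made over all rows, so nothing about the members is read from them. By another measure, limma calls against GFP scales, 78.6% of all genes tested were lower in feather as deposited. After median-ratio scaling that share was 37%. Among the 7 scale groups outside Sox2 the highest mean plus 1 was within 2 times the lowest for 17 members, and only members 6 and 30 spread by more than 3 times, at 5.16 and 5.76.

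The number of rows that pass depended on scaling. When each library was scaled to the same summed RPKM over rows without keratin names, 14 rows passed the rule, all of them members. When each was scaled by its median ratio to the others, 5 rows passed, members 1, 3, 6, 7 and 10. The scaling also lowers the level in Sox2 scales that is held against the floor, so the ratio alone shows more: it stayed at 2 or above for 10 members after median-ratio scaling, lay between 1.5 and 2 for 17 and was under 1.5 for 3. Member 1 kept a ratio of 914. Member 17 was the single one to lose its lead, with a ratio of 0.989 to feather. Both Sox2 libraries remained above all 18 others for 29 members after median-ratio scaling, a count that the choice of members largely fixes and from which nothing is read (6.23% of all rows with Ensembl identifiers did so).

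**Figure D3:**
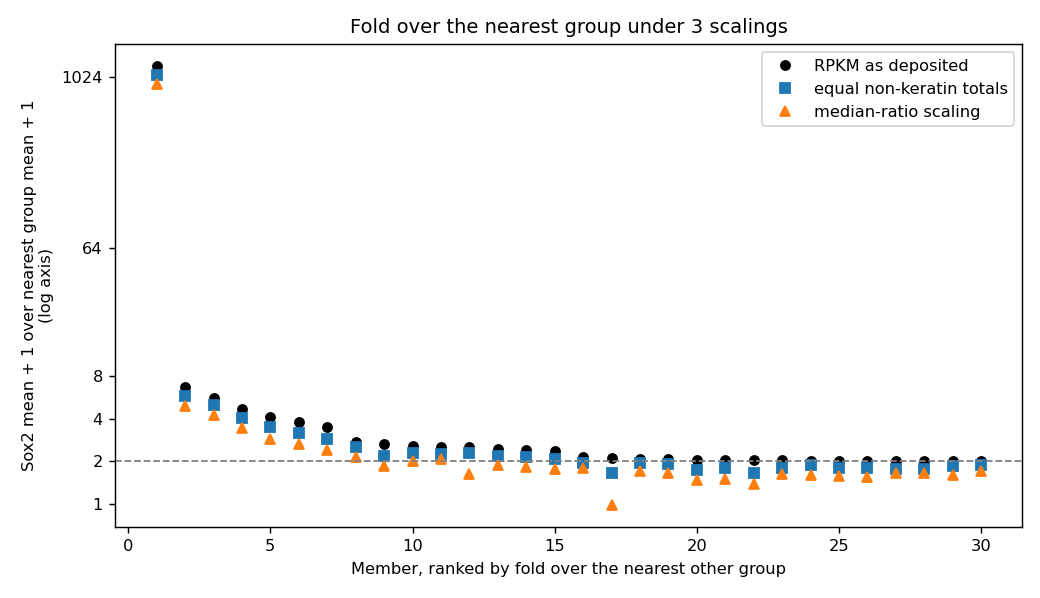
The ratio of the Sox2 mean plus 1 to the nearest group mean plus 1 (log axis) for each member, from RPKM as deposited and after 2 scalings of the libraries. The dashed line marks a ratio of 2. Members 1 to 8 stay above it under all 3, and most of members 9 to 30 drop below it after median-ratio scaling.

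The remaining comparisons set the other groups against GFP scales, and none uses the Sox2 mean. The Sox2 libraries still entered the filter and the estimate of spread that all groups share. The rule caps each of these groups below Sox2 but sets no order among them. The cap can remove rows that rise in a group, and the genes tested as a whole have no such cap. Fewer rises or more falls than among all genes are therefore not read as a result about the members. The members were tested in these groups with limma over 11863 genes, on log2(RPKM + 1) with the Benjamini-Hochberg adjustment and a threshold of 0.05. Differences on this scale understate the change of genes near or below 1 RPKM. All 30 members passed the filter of 1 RPKM in at least 2 libraries, and 26 would have passed without the Sox2 libraries. Members 1, 2, 4 and 5 were tested only because of their level in Sox2 scales, so their calls are no support for a difference. They hold 2 of the calls, member 5 with Sox18 and member 1 in feather. Over the other 26, the counts were 5 higher with Sox18 and 23 lower in feather, and all other counts were those given for the 30. All 7 comparisons share the 2 GFP libraries. Of the 210 tests, 78 passed, and the share of all genes stands beside each main comparison below. Counts with a library left out have no such share beside them, so nothing about the members is read from those. Lower in at least 1 comparison and higher in none were 20 members, member 1 among them through its feather call. Another 6 were higher in some and lower in others, member 5 was only higher, and 3 members, ranked 2, 4 and 7, passed in none. These patterns were not counted over all genes, so nothing about the members is read from them.

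With Sox18, members moved both ways. Higher than in GFP scales were 6 of 30, or 20%, beside 12.3% of all genes tested, and 9 were lower, or 30%, beside 41.3% of all. The median log2 difference was -0.05 over the members, -0.13 over the 26 and -0.20 over all genes. Member 6 rose most, averaging 6.73 RPKM with Sox18 and 1.15 RPKM in GFP scales (log2 difference 1.83, SE 0.28, limma adjusted p = 4.69e-05). Member 20 rose to 2.7 RPKM, against 1.3 RPKM in GFP scales (0.68, SE 0.13, limma adjusted p = 0.000474), and member 12 to 13.3 RPKM, against 8.95 RPKM (0.52, SE 0.11, limma adjusted p = 0.000657). Members 17 and 22 also rose, and member 5 passed with the limit given above. Member 30 fell to 2.63 RPKM, against 10 RPKM in GFP scales (-1.57, SE 0.26, limma adjusted p = 0.000129), and member 24 to 10.9 RPKM, against 23.8 RPKM (-1.07, SE 0.15, limma adjusted p = 3.37e-05). After median-ratio scaling 8 were higher and 7 lower, beside 24.1% and 25% of the 11687 genes then tested. The 8 include member 5, tested only through its Sox2 libraries. Without GFP replicate 2 the number higher was 3, with the calls for members 5, 17 and 22 lost. The call for member 22 also ended without Sox18 replicate 2 or replicate 3, and that for member 5, at 0.67 RPKM with Sox18 and 0.05 RPKM in GFP scales, ended in 19 of its 24 alternatives.

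With Zic1-deltaC and Spry2 few members differed from GFP scales. For Zic1-deltaC 3 were higher, or 10% beside 14.8% of all genes, and 1 was lower, or 3.33% beside 9.9%. Member 6 averaged 4.17 RPKM with Zic1-deltaC and 1.15 RPKM in GFP scales (log2 difference 1.24, SE 0.28, limma adjusted p = 0.00389), and members 17 and 21 were the other rises. The call for member 21 also ended without GFP replicate 1 or without any 1 of the Zic1-deltaC replicates. Member 12 was at 5.97 RPKM, against 8.95 RPKM in GFP scales (-0.51, SE 0.11, limma adjusted p = 0.0023), the opposite direction to its difference with Sox18. The number higher was 0 without GFP replicate 2, 6 without Sox18 replicate 1, 5 without Sox18 replicate 3 and 7 with equal non-keratin totals, where 24.8% of all genes were higher. For Spry2 3 members were higher, or 10% beside 17.9%, and 1 was lower, or 3.33% beside 7.41%. Member 6 averaged 5.8 RPKM with Spry2 (1.59, SE 0.30, limma adjusted p = 0.00111), and members 12 and 20 rose by 0.41 and 0.54 in log2 difference, calls that ended after median-ratio scaling. That for member 12 also ended without Spry2 replicate 1 or GFP replicate 1, and that for member 20 without Spry2 replicate 2 or GFP replicate 2. Member 13 fell to 0.65 RPKM, against 1.55 RPKM in GFP scales (-0.63, SE 0.14, limma adjusted p = 0.00368). Without Spry2 replicate 1 the number lower was 2.

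In Grem1 and beta-catenin scales the shares of the 30 members lower were near those of all genes. All these calls lay among the 26 members that passed the filter without the Sox2 libraries. For Grem1 6 were lower, or 20% beside 18.2% of all genes, and 2 were higher, or 6.67% beside 13.2%. Member 30 was at 2.85 RPKM with Grem1 and 10 RPKM in GFP scales (log2 difference -1.48, SE 0.29, limma adjusted p = 0.00116). Member 12, at 14.9 RPKM against 8.95 RPKM (0.67, SE 0.12, limma adjusted p = 0.000422), and member 17, at 9.9 RPKM against 6.7 RPKM (0.50, SE 0.12, limma adjusted p = 0.00627), were the rises. After median-ratio scaling the counts were 4 higher and 5 lower, beside 19.1% and 16.9% of all genes. Without Grem1 replicate 1 or replicate 2 the number lower was 2, and without GFP replicate 1 or replicate 2 it was 3. For beta-catenin 4 were lower, or 13.3% beside 15.2%, and 0 were higher beside 7.97%. Member 30 fell most, to 4.45 RPKM, against 10 RPKM in GFP scales (-1.05, SE 0.29, limma adjusted p = 0.0151). Its call ended with only the 2 groups compared and without beta-catenin replicate 2 or GFP replicate 1. Member 17 fell to 4.4 RPKM, against 6.7 RPKM (-0.52, SE 0.12, limma adjusted p = 0.0072), so it was lower here and higher with Sox18, Zic1-deltaC and Grem1. This call ended without beta-catenin replicate 1 or GFP replicate 1. After median-ratio scaling 1 was higher and 3 lower, beside 14.2% and 12.6% of all genes. The number lower was 1 without beta-catenin replicate 1 or without GFP replicate 1 and 2 without beta-catenin replicate 2, and 1 member was higher without Zic1-deltaC replicate 3.

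Most members, like most genes, were lower with RA than in GFP scales. With RA 19 of 30 were lower, or 63.3% beside 52.2% of all genes, and 0 were higher beside 8.34%. The cap of the rule applies to the members alone and can lower the number higher. All 19 were among the 26 members that passed the filter without the Sox2 libraries. All genes were not counted under that filter, so the 19 of 26 have no matching share. The median log2 difference was -0.51 over the members, -0.56 over the 26 and -0.31 over all genes. Member 30 was at 1.5 RPKM with RA and 10 RPKM in GFP scales (log2 difference -2.12, SE 0.29, limma adjusted p = 3.31e-05). Member 29 was at 2.35 RPKM against 7.25 RPKM (-1.31, SE 0.17, limma adjusted p = 2.12e-05), and member 8 at 0.25 RPKM against 1.9 RPKM (-1.22, SE 0.20, limma adjusted p = 0.000148). After median-ratio scaling 13 were lower and 0 higher, beside 16.9% and 19.8% of all genes. RA scales had neither the virus of the GFP scales nor a vehicle group, so RA and the absence of virus cannot be told apart.

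Feather differs from GFP scales in body site and appendage as well as in virus. In feather 24 of 30 were lower than in GFP scales, or 80% beside 78.6% of all genes. The 30 include the 4 members tested only through Sox2. Over the other 26, 23 were lower. All genes were not counted under the filter without the Sox2 libraries, so the 23 of 26 have no matching share. Higher were 0 of 30, beside 9.68%, a count that the cap of the rule can lower. The median log2 difference was -1.23 over the members, -1.47 over the 26 and -0.93 over all genes. Member 23 was at 2.65 RPKM in feather and 32.4 RPKM in GFP scales (log2 difference -3.19, SE 0.13, limma adjusted p = 1.09e-12). Member 19 was at 1.95 RPKM against 22.6 RPKM (-3.00, SE 0.15, limma adjusted p = 1.71e-11). Members 1, 6, 13 and 30 passed as lower and were listed at 0 in both feather libraries, so no fold is given for them, and member 1 was tested only through its Sox2 libraries. After median-ratio scaling 20 were lower and 3 higher, beside 37% and 36% of all genes, and the median difference was -0.63 over the members and -0.02 over all genes. The 3 were members 12 and 17 and member 5, again tested only through Sox2. Keratin rows took 74.4% and 68.8% of the summed RPKM in feather, 49.6% and 50.8% with RA and 22.3% and 25.3% in GFP scales, and their part in these falls was not tested beyond the scalings.

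**Figure D4:**
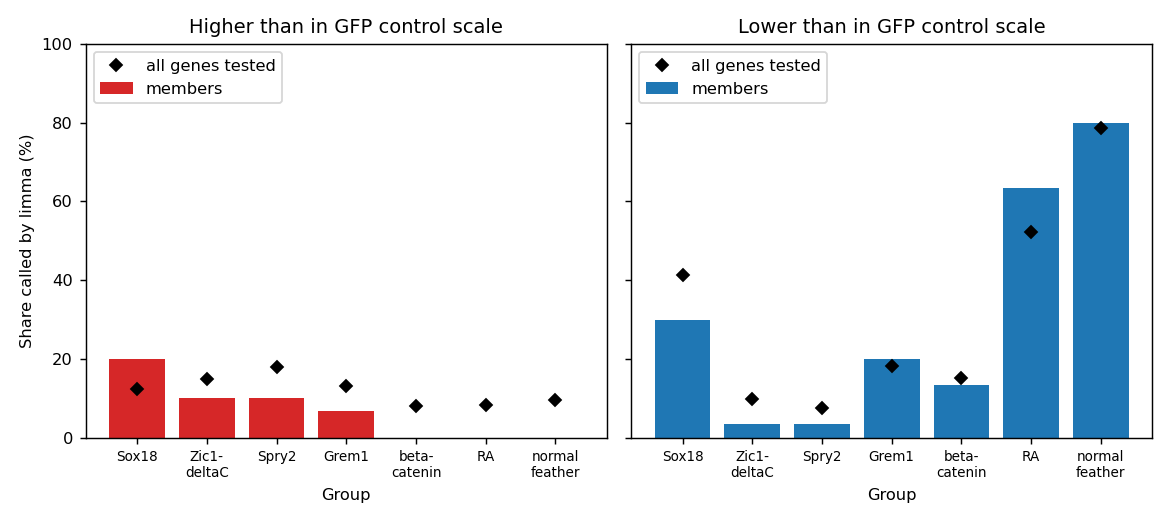
Bars give the percentage of the 30 members that limma called higher (left) or lower (right) than in GFP control scales in each of 7 groups, and diamonds the percentage over all 11863 genes tested. The bars include members 1, 2, 4 and 5, which were tested only through their Sox2 libraries and hold 1 call with Sox18 and 1 in feather. Over the 30, bars lie near the diamonds in feather (80% and 78.6% lower) and above them for RA (63.3% and 52.2% lower). Over the other 26 members, 23 were lower in feather and 19 with RA. All genes were not counted under the filter that these 26 pass, so neither count has a matching share. The rule caps the members in each group, which can lower the bars on the left.

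Rows with keratin names were outside the choice of members, but 5 of 180 met the same thresholds in the same comparison of means. These too are a description. Chr25_Ktn14 was at 72.1 and 71.4 RPKM in Sox2 scales, 0.6, 0.8 and 2.1 RPKM with Sox18, and 0.3 and 0.1 RPKM in GFP scales. KRT7, a keratin of simple and glandular epithelia in mammals, was at 25.6 and 32.2 RPKM in Sox2 scales, 3.9 and 3.5 RPKM with Grem1 and 1.3 and 1.1 RPKM in GFP scales. Both were far above every other library.

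KRT12, which in mammals marks the corneal epithelium, was at 43.5 and 29.6 RPKM in Sox2 scales and 9.3 and 8.1 RPKM in GFP scales, its nearest group. KRT16A, whose mammalian namesake KRT16 is induced in injured epidermis, was at 365 and 287 RPKM in Sox2 scales, 97.9 and 107 RPKM with Spry2 and 11 and 8.7 RPKM in GFP scales. KRT78 was at 41.3 and 56.4 RPKM in Sox2 scales, 22.8 and 19.7 RPKM with Grem1 and 4.8 and 6.5 RPKM in GFP scales. For KRT16A and KRT78 all groups kept some level, and GFP scales were the lowest. After median-ratio scaling the ratio over the nearest group was 23.6 for Chr25_Ktn14, 4.81 for KRT7, 3.06 for KRT12, 1.7 for KRT78 and 1.63 for KRT16A, the last relative to feather.

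**Figure D5:**
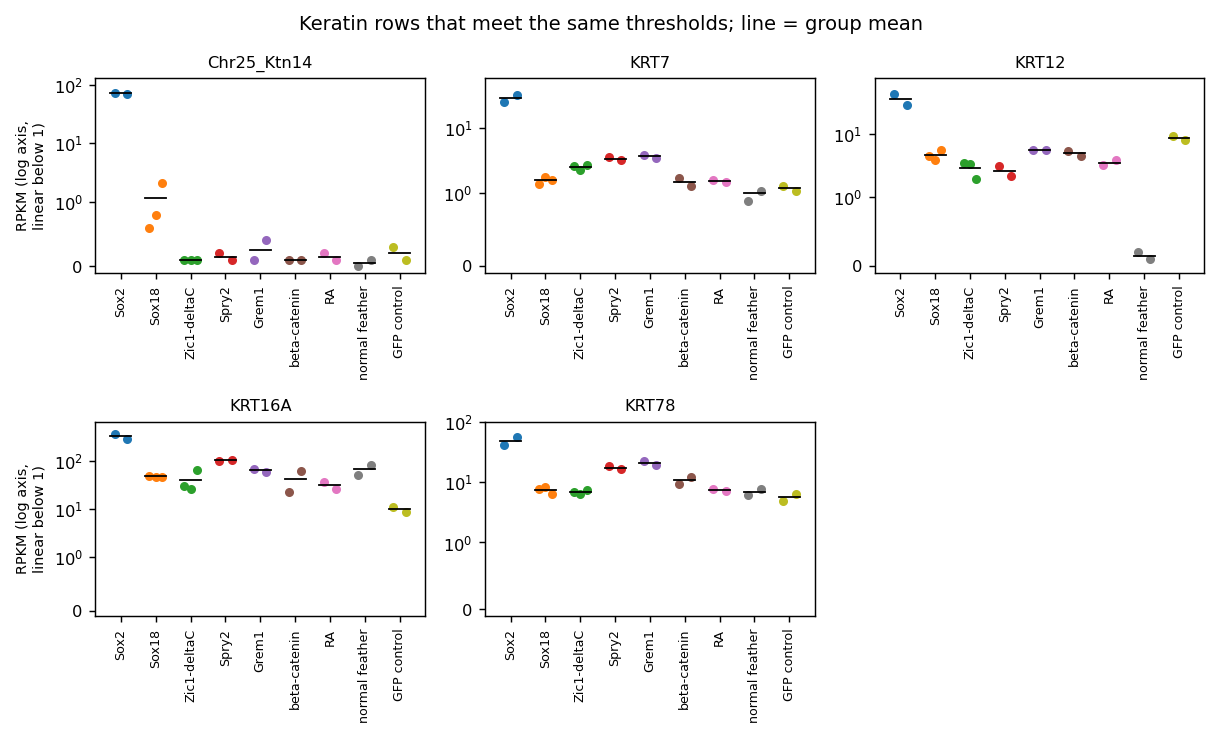
RPKM of the 5 keratin rows that met the thresholds used for the members, in each library (points) with the group mean (line), on a log axis that is linear below 1. Sox2 libraries are the highest in each panel, and KRT16A ranges from 8.7 RPKM in a GFP library to 365 RPKM in a Sox2 library.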

How the data were processed

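The submitters' processing notes name TopHat2, an aligner, the software Partek and the chicken build galGal4, without roles, versions or annotation. The authors deposited RPKM values with 1 decimal. Per the labels, RNA was extracted with Trizol and libraries made with the TruSeq V2 kit. Both deposited tables gave the 180 keratin rows identical values.

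The members and lists were chosen with earlier results of these data known. Group means of RPKM as deposited gave the members. For the other contrasts, limma (with a variance trend) used log2(RPKM + 1) of the 20 libraries together, with 11 residual and 5.35 prior degrees of freedom, on genes at 1 RPKM or more in at least 2 libraries. Its code was tested on simulated data. With so few libraries, calls rest on the pooled spread. Genes were to be named by fold and level where a symbol was known; without symbols, at most 2 identifiers of high members (largest fold) and 2 of low ones (largest called falls in feather) were printed, and other members are given by rank, chosen after their values were seen. Lists of pathway and cell type genes fixed by symbol matched 0 identifiers and are not assessed. Alternatives were other thresholds, pseudocounts, filters, scalings, a replicate block, a robust prior, the 2 groups alone and leaving out each library. R 4.3.3, limma 3.58.1, Python 3.11.15, numpy 2.4.6, pandas 2.3.3 and matplotlib 3.10.9 were used.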

Additional observations from a re-analysis of the deposited data

How the results depend on the processing

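The number of rows that pass the rule was 324 at a fold of 1.5, 7 at a fold of 3, 19 at a floor of 10 RPKM, 54 with a pseudocount of 0.1, 14 with equal non-keratin totals, 5 after median-ratio scaling and 11 with single libraries in place of means; it was 43 at a floor of 1 RPKM. Leaving out each library gave 27 to 36 rows, of which 22 to 30 were among the 30, the fewest without Sox2 replicate 1. Against GFP scales, leaving out each library gave 3 to 7 members higher and 7 to 9 lower with Sox18, 0 to 6 and 1 to 1 with Zic1-deltaC, 2 to 4 and 1 to 2 with Spry2, 2 to 3 and 2 to 7 with Grem1, 0 to 1 and 1 to 6 with beta-catenin, 0 to 0 and 15 to 20 with RA, and 0 to 0 and 22 to 25 in feather. No share of all genes stands beside these counts, so nothing about the members is read from them. A group left with 1 library is assumed to vary like the others. Under equal non-keratin totals 7 members were higher with Zic1-deltaC, 1 with beta-catenin and 2 in feather, beside 24.8%, 11.4% and 19.6% of all genes in the same fits. After median-ratio scaling 1 was higher with Spry2, 4 with Grem1, 1 with beta-catenin and 3 in feather, beside 12.7%, 19.1%, 14.2% and 36% of all genes. The 3 in feather include member 5. With a pseudocount of 0.1, 4 were higher with Grem1, 1 with beta-catenin, 1 with RA and 1 in feather, beside 12.3%, 7.24%, 8.24% and 9.61%. Member 5 was 1 of the 4 with Grem1 and the single rise with beta-catenin, with RA and in feather. It was tested only through its Sox2 libraries, so these calls are no support. With only the 2 groups compared, 26 members were tested for Zic1-deltaC and for Spry2. Of these, 6 were higher with Zic1-deltaC and 5 with Spry2, beside 20.9% and 13.6%. A mean filter of 5 RPKM tests 17 members, of which 0 were lower with Spry2, 3 with Grem1, 10 with RA and 14 in feather, beside 7.76%, 15.8%, 56% and 80.8%. That mean takes in the Sox2 libraries, and members 1, 6 and 29 reach it only with them. Their calls at this filter are therefore no support. The direction turned for member 27 with RA under equal non-keratin totals (log2 difference 0.00397) and for member 20 in feather after median-ratio scaling (0.28); the cause was not tested. Of the 78 calls, 74 held with the replicate block, 62 after median-ratio scaling and 67 with equal non-keratin totals. Equal replicate numbers do not mark shared embryos in the labels, and of 73 pairs of libraries with the same number 8 correlated above 0.1 in their deviations (r between -0.28 and 0.21), so the block was not used as a pairing. Depth is unknown, so values near 0 carry no limit of detection.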

Other observations

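Member 7 and KRT16A split the replicates of 2 groups in the same way, noticed after the values were seen. Under Zic1-deltaC, member 7 was at 2.1, 2 and 18 RPKM and KRT16A at 30.2, 26.2 and 65.9 RPKM in replicates 1, 2 and 3. Under beta-catenin, member 7 was at 4.5 and 15.1 RPKM and KRT16A at 23.1 and 61.9 RPKM in replicates 1 and 2. Both were highest in Sox2 scales, at 35.2 and 39.9 RPKM for member 7 and 365 and 287 RPKM for KRT16A, and low in GFP scales, at 3.9 and 3.2 RPKM for member 7 and 11 and 8.7 RPKM for KRT16A. The 2 groups above are picked for their likeness. Replicates also ran in the same order with RA, with Spry2 and in GFP scales. They ran in opposite order in Sox2 scales, in feather, with Grem1 and with Sox18. In feather member 7 was at 2.2 and 1.4 RPKM and KRT16A at 52 and 81.2 RPKM. With Grem1 member 7 was at 3.9 and 4 RPKM and KRT16A at 69.8 and 59.6 RPKM. With RA they were at 4.6 and 3.7 RPKM and at 37.3 and 26 RPKM. With Spry2 member 7 was at 6.5 and 7.4 RPKM and KRT16A at 97.9 and 107 RPKM. Across Sox18 replicates 1, 2 and 3 they ran in opposite order, member 7 at 7.5, 9.9 and 12.5 RPKM and KRT16A at 49.7, 47.6 and 45.7 RPKM.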
